A study of Mus musculus with 14 samples.

Results

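Immediate early genes are switched on within minutes of a stimulus, without new protein synthesis, and their messenger RNAs are short-lived. The 10 members described here were taken by symbol from the deposited tables of mouse retina RNA sequencing: Fos, Fosb, Jun, Junb, Egr1, Egr3, Ier2, Nr4a1, Arc and Dusp1. The P0 table listed 9 of them among 19337 genes, and the P22 table listed 6 of them among 11613 genes. Egr3 had no row at either age, and Fosb, Ier2 and Arc had none at P22, so these were not analysed here. The lowest log2 mean CPM (a gene's reads scaled to a common library size) in the authors' deposited table was -0.33 at P0 and 2.16 at P22, so the P22 table reached less far down in expression.

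The study compared retinas of mice heterozygous for the long noncoding RNA Peanut (Peanut +/-, called het) with retinas lacking both copies (Peanut -/-, called KO). At P0, the day of birth, there were 4 het and 4 KO libraries, and at P22, postnatal day 22, there were 2 het and 4 KO libraries. The het libraries served as the reference, so 1 copy of the allele was altered in them too; how the allele was made, the strain and the number of animals per library were not given in the sources used here. Where libraries of a group do not come from separate animals, p-values measure only the spread between these samples, which may be technical. The P0 libraries were depleted of ribosomal RNA and primed at random, while a stranded kit for total RNA was used at P22. The effects of age and of kit cannot be told apart, and levels were not compared between ages.

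In a signalling cascade, receptors and calcium entry activate the kinase ERK and the factors SRF and CREB, which bind the promoters of these genes. Fos, Fosb, Jun and Junb encode subunits of the dimeric AP-1 transcription factor. Egr1 and Egr3 encode zinc finger factors, Nr4a1 an orphan nuclear receptor, Ier2 a small nuclear protein, and Arc a protein of synapses. Dusp1 encodes a phosphatase that inactivates MAP kinases and so closes the loop. In the retina, AP-1 genes are known to respond to light, injury and the handling of tissue, in neurons and in Müller glia.

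The promoters of 4 members are shown because these genes gave different patterns between libraries although all 4 are stimulus-driven. Each is the stretch of 250 bases that ends just before the start site, 5′ to 3′ on the gene's strand, from RefSeq on GRCm38.p6. The capitals mark matches to the motifs spelled out below. RefSeq promoters were matched for 6 of the members (Fos, Fosb, Jun, Junb, Nr4a1 and Dusp1). The RefSeq start sites of Dusp1 and Nr4a1 lie inside the longer gene spans given below, which come from GENCODE.
Jun, chr4:95052223-95052472, minus strand: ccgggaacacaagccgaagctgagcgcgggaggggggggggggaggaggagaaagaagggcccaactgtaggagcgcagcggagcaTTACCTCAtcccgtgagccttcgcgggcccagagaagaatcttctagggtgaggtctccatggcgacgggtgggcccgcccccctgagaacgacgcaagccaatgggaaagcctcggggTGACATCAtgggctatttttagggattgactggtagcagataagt
Dusp1, chr17:26508473-26508722, minus strand: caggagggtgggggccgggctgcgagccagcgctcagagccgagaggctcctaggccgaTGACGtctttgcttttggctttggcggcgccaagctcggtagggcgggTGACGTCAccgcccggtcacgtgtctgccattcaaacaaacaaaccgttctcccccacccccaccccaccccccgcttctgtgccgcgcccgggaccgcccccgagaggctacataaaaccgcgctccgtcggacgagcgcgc
Nr4a1, chr15:101266596-101266845, plus strand: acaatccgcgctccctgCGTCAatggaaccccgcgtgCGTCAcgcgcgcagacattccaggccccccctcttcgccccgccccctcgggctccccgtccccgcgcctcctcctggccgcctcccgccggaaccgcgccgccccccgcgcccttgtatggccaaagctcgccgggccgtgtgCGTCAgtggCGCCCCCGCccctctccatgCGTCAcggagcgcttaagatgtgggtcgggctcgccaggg
Fos, chr12:85473640-85473889, plus strand: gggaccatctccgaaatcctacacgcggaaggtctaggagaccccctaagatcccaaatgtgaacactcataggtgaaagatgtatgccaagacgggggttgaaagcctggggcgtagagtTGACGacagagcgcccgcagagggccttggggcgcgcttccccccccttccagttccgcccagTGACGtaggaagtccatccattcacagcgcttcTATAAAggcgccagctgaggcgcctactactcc

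Both strands were searched for each motif. The Jun window held the letters of its known AP-1-like elements, Jun1 (TGACATCA) 45 to 38 bases before the start and Jun2 (TTACCTCA) 164 to 157 bases before it. Of 32851 promoter windows of the same length, 2.93% held the first and 0.728% the second. The full cyclic AMP response element (TGACGTCA) was in the Dusp1 window, 143 to 136 bases before the start, and in 1.55% of all windows. Its core (TGACG or CGTCA), which also lies within the full element, was in 5 of the 6 windows, all but that of Jun, and in 17.8% of all windows. The Nr4a1 window held 4 cores, and it and the Fosb window held an EGR site (GCGGGGGCG, found in 2.57% of all windows). The Fos window held a TATA box (TATAAA, found in 12.4%). None of the 6 windows held a consensus AP-1 site (TGACTCA, 4.46% of all windows) or a CArG box, the SRF motif (1.47%). These are matches of letters in one window per gene and show no binding. Sites more than 250 bases before the start were not searched.

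The library totals, as the deposited counts and CPM give them, lay between 15028865 and 19833083 reads at P0. At P22 they lay between 11044462 and 22813199 reads, apart from het replicate 1 with 1819688. A floor of 3 reads corresponded to at most 0.200 CPM at P0 and to 1.65 CPM in that shallow P22 library. Reads carried no molecular identifiers, so such floors and intervals cover counting error only. No row was named Peanut. At P0 only Gm11454 passed the test over all genes, with 14 to 31 reads in the het libraries and 0 in every KO library; it had no row at P22. Retinal markers were present at both ages: 10 rod genes summed to between 590 and 911 CPM at P0, and at P22 they summed to between 43989 and 88381 CPM and no lens gene had a row. At P0 some libraries stood apart. KO replicate 3 had marker levels nearer the het than the other KO libraries, as given beside Jun, so the members' P0 values are also given without it. KO replicate 2 had lens markers (7 of 10 listed) at a summed 92.4 CPM, against 18.6 to 27.99 CPM in the other 7 libraries. Het replicate 1 was low in pigment epithelium markers, at 47.4 CPM against 94.5 to 95.8 CPM in the other het libraries. It was also low in red cell markers, at 17.7 CPM against 30.8 to 33.3 CPM.

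Per kilobase of exon, Jun was the most abundant member at P0. Exon length counted the merged exons of all annotated transcripts, 3311 bases for Dusp1, so the order depends on the annotation. In the het libraries it stood at 22.4 ± 1.49 CPM per kilobase (SD, n = 4), above Ier2 at 11.6 ± 1.05 and Dusp1 at 9.02 ± 0.907. Egr1 at 3.56 and Nr4a1 at 2.92 overlapped between libraries, as did Junb at 1.94 with Fos at 1.63 and Fos with Arc at 0.665. Fosb was lowest at 0.159. In the KO libraries the mean order was the same, but Jun (14.8) overlapped with Ier2 (8.38) and Ier2 with Dusp1 (7.46). At P22 the order in the het libraries was Jun at 13.2, Fos at 9.34, Egr1 at 5.68, Nr4a1 at 4.67, Junb at 2.93 and Dusp1 at 2.19 CPM per kilobase, with overlap only between Egr1 and Nr4a1. In the P22 KO libraries Dusp1 (2.93) stood above Junb (2.56), although the libraries of both overlapped.

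At P0 no member passed the test between KO and het retinas, and the libraries of the groups overlapped for every member. Jun and Ier2 were low in 3 KO libraries and at or above the mean het level in KO replicate 3. Fos, Fosb, Egr1 and Arc varied more within a genotype than between genotypes. Tests were edgeR's quasi-likelihood tests, with Benjamini-Hochberg adjustment over all genes. The count of 0 members at an adjusted p under 0.05 stood beside 0.00517% of all genes called, and DESeq2's Wald test also called 0. With limma's sample weights, which give outlying libraries less weight, 2 members were called, beside 11.1% of all genes: Jun (-1.05, adjusted p = 0.00547) and Ier2 (-0.67, adjusted p = 0.00756). At an unadjusted p under 0.05 there was 1 member, Ier2, beside 8.17% of all genes. The groups did not overlap for 2.35% of all genes and for 0 members.

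**Figure D1:**
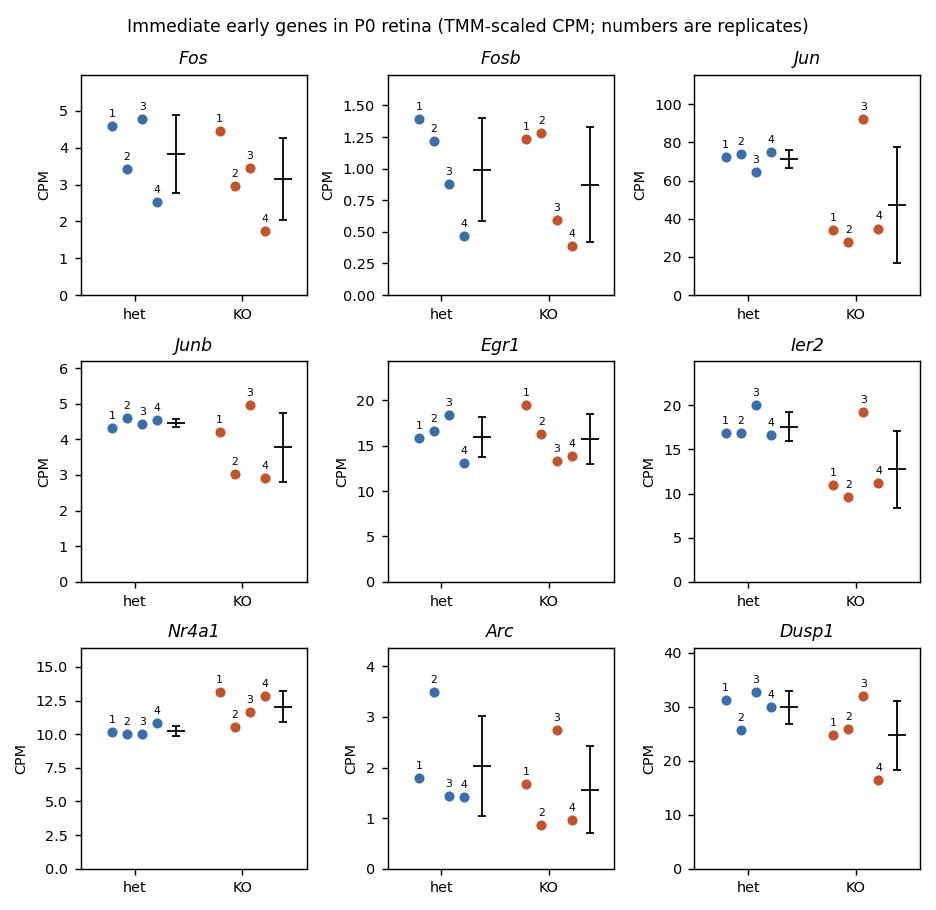
Levels of the 9 members listed at P0, in CPM scaled by TMM, 1 panel per gene; each point is a library with its replicate number, and the bar is the group mean ± SD (4 het and 4 KO libraries). Jun in KO replicate 3 was at 92.4 CPM while the other KO libraries lay between 27.9 and 34.8, and the het libraries lay close together.

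Jun (chromosome 4, 95049034 to 95052222, minus strand, GRCm38, a gene of 1 exon) encodes the AP-1 subunit that can pair with itself or with Fos proteins. Its level was 72.3, 73.9, 64.4 and 74.8 CPM in het replicates 1 to 4 and 33.9, 27.9, 92.4 and 34.8 CPM in KO replicates 1 to 4. KO replicates 1, 2 and 4 lay below every het library, and KO replicate 3 lay above every one. These levels rested on 1088 to 1273 reads in het libraries and on 539 to 1718 in KO libraries, so counting error was small beside the gap. The het mean was 71.3 ± 4.76 CPM and the KO mean 47.3 ± 30.3 CPM (SD, n = 4 for both). The fitted log2 fold change was -0.59 (SE 0.29), with an edgeR adjusted p of 0.526. Without KO replicate 3 it was -1.19, with an adjusted p of 4.16e-05. In that fit 14.7% of all genes were called, and Jun, Ier2 and Dusp1 among the members. Without KO replicate 2, the library with the lens markers and the lowest Jun level, it was -0.42, with an adjusted p of 0.878. The authors' deposited table lists Jun at a log2 fold change of -0.59 with a false discovery rate of 0.0482, the only member past 0.05 there.

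An exact test with 1 common dispersion for all genes, computed here, gave Jun the same adjusted p of 0.0482, with 0.176% of all genes called. That test assigns every gene a biological coefficient of variation of 0.143, whereas the gene-wise estimate for Jun was 0.285 and the trend at its expression 0.131. The antisense gene Junos shares 232 exonic bases with Jun, and no source used here says whether strand was used in the P0 counting. Junos had 46 to 65 reads in het and 55 to 76 in KO libraries, with 55 in KO replicate 3, before any scaling. Its part in the Jun counts was not tested.

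Other measures differed between KO replicate 3 and the other KO libraries at P0, some in the direction of Jun and some against it. Müller glia markers, 8 of 10 listed, summed to between 1743 and 2104 CPM in het libraries, to 1367, 1386 and 1393 CPM in KO replicates 1, 2 and 4, and to 2136 CPM in KO replicate 3. Endothelial and mural markers, 9 of 10 listed, summed to between 505 and 538 CPM in het, to 360, 389 and 427 CPM in those 3 KO libraries and to 568 CPM in KO replicate 3. Kdr, a receptor for vascular growth factor, made up 89.6% to 94.0% of each of these sums. Without Kdr, the sum was 29.2 to 35.2 CPM in those 3 KO libraries, 50.8 CPM in KO replicate 3 and 32.3 to 52.3 CPM in het, so the remaining genes overlapped between the groups. Neuron markers, all 10 listed, were at 993 CPM in KO replicate 3 and at 720 to 832 CPM in the other KO libraries. Without Tfap2b, the most abundant neuron marker, KO replicate 3 was at 685 CPM and the other KO libraries at 541 to 676 CPM. Rod markers ran the other way, at 613 CPM in KO replicate 3, at 857 to 911 CPM in the other KO libraries and at 590 to 820 CPM in het. The mitochondrial share of reads was 1.28% to 1.67% in het, 2.01%, 2.72% and 2.14% in the same 3 KO libraries and 1.26% in KO replicate 3. In each of these sums over a whole list, and in the mitochondrial share, KO replicate 3 lay on the het side of the other KO libraries. No gene of these lists was at 0 in any P0 library, and 0 were called by edgeR. Without KO replicate 3, 4 of 8 Müller glia, 2 of 9 endothelial and mural, 2 of 10 neuron and 5 of 10 progenitor markers were called lower, beside 12.6% of all genes, and 2 of 10 rod markers were called higher, beside 2.06% of all genes. With all libraries the progenitor markers were split, 5 above 0 and 5 below. They summed to 4811 to 5321 CPM in het and to 4640, 5273, 5643 and 4702 CPM in KO replicates 1 to 4. In bulk tissue, fewer cells of a type and less RNA per cell cannot be told apart, and the part of these measures in the Jun result was not tested.

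Fos (chromosome 12, 85473890 to 85477273, plus strand) was at 4.58, 3.43, 4.79 and 2.53 CPM in het and 4.45, 2.97, 3.44 and 1.75 CPM in KO replicates 1 to 4. The lowest library of each genotype was replicate 4, and the groups overlapped over most of their range. With edgeR, Fos had a log2 fold change of -0.28 (SE 0.27, adjusted p = 0.650), and without KO replicate 3 of -0.36. With 1 library left out it ranged from -0.48 (without KO replicate 1) to -0.12 (without KO replicate 4). Fosb (chromosome 7, 19302696 to 19310051, minus strand), a close relative of Fos, was scarce, at 1.40, 1.22, 0.875 and 0.471 CPM in het and 1.24, 1.28, 0.592 and 0.388 CPM in KO. Replicate 4 was again lowest in each genotype. Fosb had a log2 fold change of -0.15 (SE 0.40, adjusted p = 0.880), which was -0.03 without KO replicate 3 and turned to 0.04 without het replicate 1 or KO replicate 4.

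Junb (chromosome 8, 84974484 to 84978718, minus strand), an AP-1 subunit that often acts as a weaker partner than Jun, was even across het libraries, at 4.32, 4.59, 4.43 and 4.53 CPM. In KO replicates 1 to 4 it was at 4.20, 3.02, 4.95 and 2.91 CPM, so that only KO replicate 3 exceeded the het level. Junb had a log2 fold change of -0.24 (SE 0.19, adjusted p = 0.589), and of -0.44 without KO replicate 3 (adjusted p = 0.122). It shares 173 exonic bases with Prdx2 on the opposite strand.

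Egr1 (on chromosome 18), which binds GC-rich promoter sites, was at 15.9, 16.6, 18.4 and 13.1 CPM in het and 19.4, 16.2, 13.3 and 13.9 CPM in KO. The KO libraries covered most of the het range, and KO replicate 3 was the lowest of the KO group, not the highest. For Egr1 the log2 fold change was -0.03 (SE 0.14, adjusted p = 0.947), and it was above 0 when only library totals were used for scaling and without KO replicate 3 (0.01). Nr4a1 (chromosome 15, 101254269 to 101274795, plus strand) was the single member with a higher KO mean. Its level was 10.2, 9.99, 10.0 and 10.8 CPM in het and 13.1, 10.6, 11.7 and 12.9 CPM in KO. KO replicate 2 lay within the het range and the other KO libraries above it. KO exceeded het by a log2 fold change of 0.23 (SE 0.12, adjusted p = 0.526), and by 0.21 without KO replicate 3.

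Ier2 (chromosome 8, 84661331 to 84662852, minus strand, 1 exon) followed the Jun libraries. It was at 16.9, 16.9, 20.0 and 16.6 CPM in het and 10.9, 9.63, 19.3 and 11.2 CPM in KO replicates 1 to 4. Here too KO replicates 1, 2 and 4 lay below every het library, and KO replicate 3 lay within the het range. The fold change of Ier2 was -0.46 in log2 (SE 0.18, adjusted p = 0.526), and without KO replicate 3 it was -0.77 (adjusted p = 0.000780). Jun and Ier2 lie on different chromosomes.

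Arc (chromosome 15, 74669083 to 74672570, minus strand) was at 1.79, 3.48, 1.44 and 1.41 CPM in het and 1.67, 0.871, 2.74 and 0.970 CPM in KO. Its highest library was het replicate 2, followed by KO replicate 3, and the highest library was 4.00 times the lowest. Arc had a log2 fold change of -0.37 (SE 0.38, adjusted p = 0.675). It was -0.84 without KO replicate 3 (adjusted p = 0.137) and -0.0027 without het replicate 2, so its size rested on single libraries. Dusp1 (chromosome 17, 26505590 to 26562128, minus strand) was at 31.2, 25.7, 32.6 and 30.0 CPM in het and 24.7, 25.9, 31.9 and 16.4 CPM in KO. KO replicate 4 lay far below the rest, and KO replicate 3 was again the highest KO library. Dusp1 had a log2 fold change of -0.27 (SE 0.16, adjusted p = 0.533), and without KO replicate 3 it was -0.45 (adjusted p = 0.0394). Without KO replicate 4 it was -0.15.

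**Figure D2:**
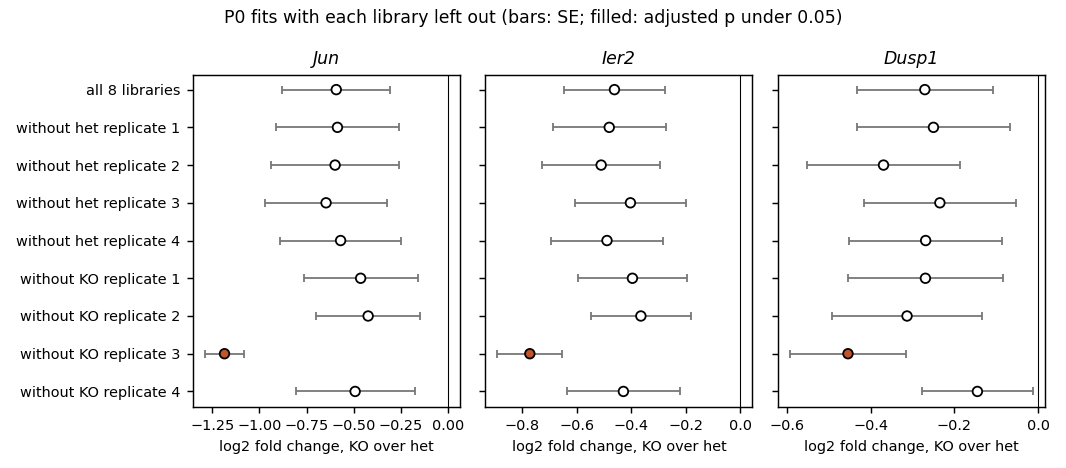
Fitted log2 fold change of KO over het at P0 for Jun, Ier2 and Dusp1 (horizontal axis) with all 8 libraries and with each library left out (vertical axis); bars are standard errors, and filled points had an adjusted p under 0.05. Points are filled only without KO replicate 3, where the values were -1.19, -0.77 and -0.45.

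The spread between libraries was set against the genotype difference on the scale of log2(CPM + 0.5). The standard deviation within groups had a median of 0.31 over the 9 members and of 0.19 over all genes at P0. For 6 members it lay above the 90th percentile of genes in the same class of mean expression, when genes were ranked by it into 10 equal classes, beside 9.98% of all genes. These were Fos, Fosb, Jun, Ier2, Arc and Dusp1. Jun was at the 99.6th percentile of its class, with a standard deviation of 0.55, whereas Nr4a1 was at the 6.36th percentile, with 0.10. The standard deviation among KO libraries exceeded that among het libraries for all 9 members, beside 59.4% of all genes. For Jun these were 0.77 and 0.10. Without KO replicate 3 the standard deviation of Jun was 0.13, at the 62.9th percentile, and that of Ier2 0.12, at the 18.7th. The members above the 90th percentile were then 4, Fos, Fosb, Arc and Dusp1, and KO spread exceeded het spread for 7 of 9 members, beside 39.6% of all genes.

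The absolute genotype difference exceeded the within-group standard deviation for 5 of the 9 members, beside 34.2% of all genes. The ratio of difference to standard deviation was 2.10 for Nr4a1, 1.57 for Ier2, 1.39 for Jun, 1.05 for Junb and 1.01 for Dusp1, and it was below 1 for Fos, Arc, Fosb and Egr1. The count was 3 without het replicate 3 (36.4% of all genes), 3 without KO replicate 4 (26.7%) and 6 without KO replicate 3 (56.4%). The log2 fold change was below 0 for 8 of 9 members, beside 45.1% of all genes, and the median was -0.27 over the members and 0.03 over all genes. Without KO replicate 3, 7 of 9 were below 0, with a median of -0.44.

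**Figure D3:**
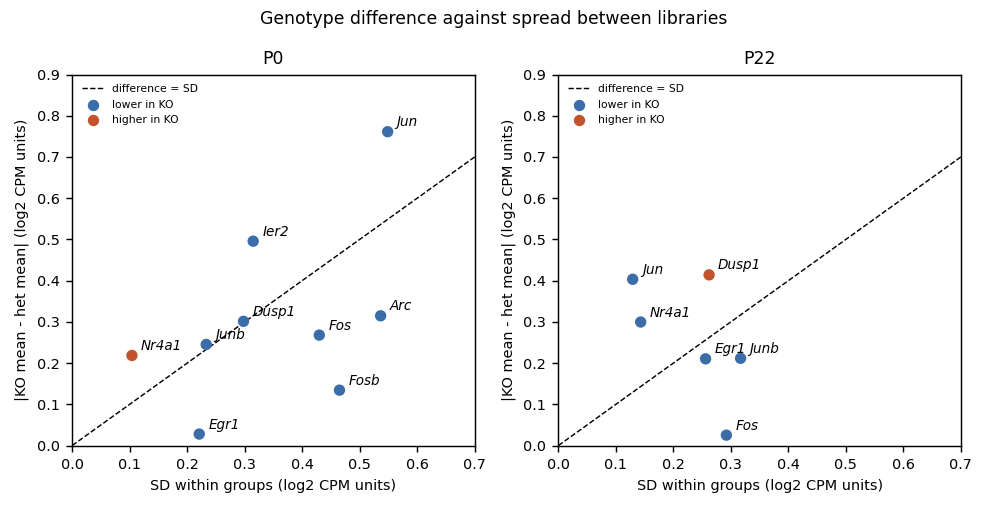
Absolute difference between KO and het group means (vertical axis) against the standard deviation within groups (horizontal axis), both on the log2(CPM + 0.5) scale, for 9 members at P0 and 6 at P22; blue points were lower and orange points higher in KO, and the dashed line marks equality. Jun lies farthest right at P0, with a standard deviation of 0.55, and far left at P22, with 0.13.

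The members did not share 1 order of libraries. The summed level of the 9 members was 154 to 158 CPM in the het libraries and 114, 98.4, 180 and 95.2 CPM in KO replicates 1 to 4, and Jun made up the largest part of these sums. KO replicate 4 was the lowest of all 8 libraries for 4 members and KO replicate 2 for 3. Within KO, replicate 3 was the highest library for Jun, Ier2, Junb, Arc and Dusp1. For Fos, Fosb and Egr1 the highest KO library was replicate 1 or 2, and het replicate 4 was the lowest het library. With KO replicate 3 and het replicate 4 both left out, a choice made after seeing the data, Jun was at -1.14 (adjusted p = 0.000557) and Ier2 at -0.78 (adjusted p = 0.00462), beside 6.82% of all genes called.

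**Figure D4:**
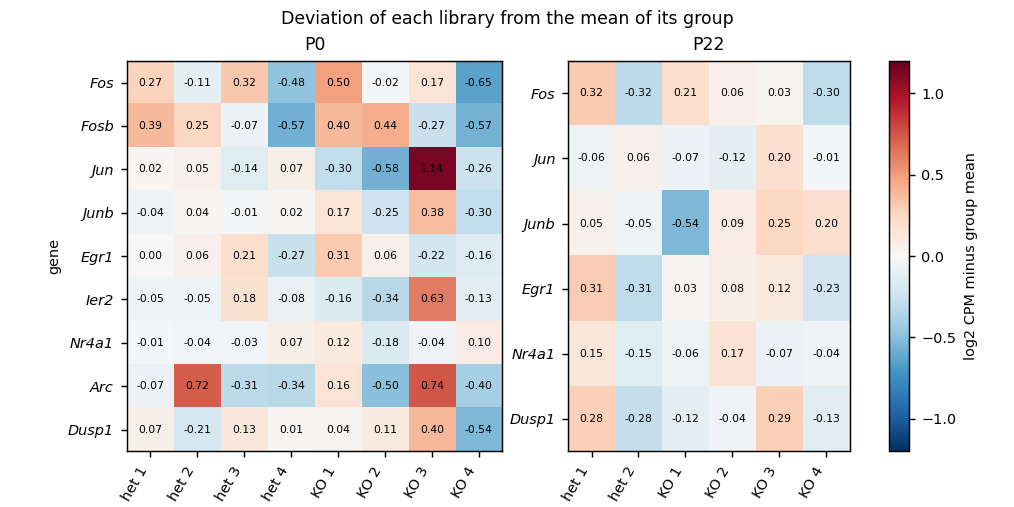
Deviation of each library (horizontal axis) from its group mean for each member (vertical axis), on the log2(CPM + 0.5) scale; red is above and blue below the group mean. At P0, Jun in KO replicate 3 deviates most, and Nr4a1 shows pale cells throughout.

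The genes whose deviations from the group means over the 8 P0 libraries were most like the mean of the members' deviations were Mrps2 (Pearson r = 0.991), Rhno1 (0.984), Spry1 (0.979), Bak1 (0.966) and Mrpl38 (0.950). Over the 6 P22 libraries they were Phf23 (0.998), Pym1 (0.997), Clta (0.995), Coa3 (0.995) and Cct2 (0.993). With so few libraries, and so many genes to choose from, high values are found for some genes, and the libraries share their depth and makeup. These correlations are descriptions, over genes with a mean log2 CPM of at least 1.

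At P22 no member passed the test either. Jun was lower in all 4 KO libraries than in either het library, with an adjusted p of 0.0696, and Dusp1 was at or above the higher het library. The 6 members listed gave 0 calls with edgeR, and DESeq2's Wald test, which gave no adjusted p for Junb, called 0 of the other 5, beside 11.2% of all genes called by edgeR. At an unadjusted p under 0.05 there were 2 members, Jun and Dusp1, beside 28.8% of all genes. The same 2 were the members whose groups did not overlap, beside 40.7% of all genes. The members' shares were thus near or below the background.

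**Figure D5:**
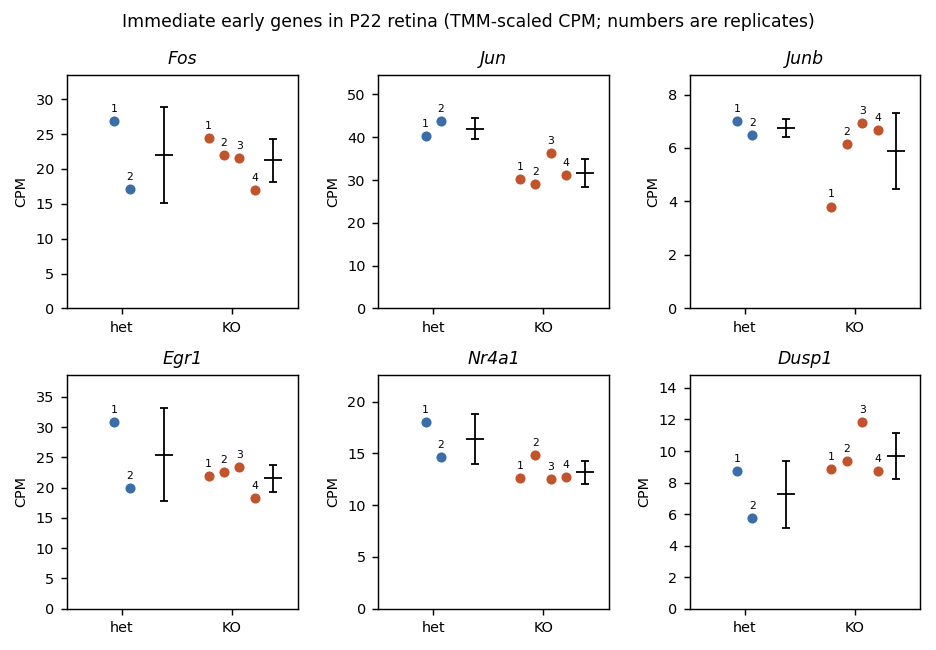
Levels of the 6 members listed at P22, in CPM scaled by TMM; each point is a library with its replicate number, and the bar is the group mean ± SD (2 het and 4 KO libraries). Jun separates the genotypes, with 40.2 and 43.7 CPM in het and at most 36.4 CPM in KO.

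Jun was at 40.2 and 43.7 CPM in the het libraries and at 30.2, 29.0, 36.4 and 31.3 CPM in KO replicates 1 to 4. All 4 KO libraries lay below both het libraries. Its 69 reads in the shallow het replicate 1 gave a 95% exact Poisson interval of 31.3 to 50.9 CPM, which reaches into the KO range. The means were 42.0 ± 2.46 CPM (SD, n = 2) and 31.7 ± 3.26 CPM (SD, n = 4). The fold change of Jun at P22 was -0.42 in log2 (SE 0.14, adjusted p = 0.0696). The adjusted p was 0.0212 with limma's sample weights (23.0% of all genes called) and 0.0498 without KO replicate 3 (9.39% called). With the replicate number as a block it was 0.0478 (1760 of 11613 genes called), and over all alternatives it ranged from 0.0212 to 0.324.

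Dusp1 was at 8.75 and 5.75 CPM in het and 8.84, 9.36, 11.9 and 8.75 CPM in KO. The lowest KO library exceeded het replicate 1 by less than the rounding shown, and that het value rested on 15 reads, with an interval of 4.90 to 14.4 CPM. The edgeR log2 fold change was 0.59 (SE 0.25, adjusted p = 0.149). It was 0.14 without het replicate 2.

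Fos was at 26.8 and 17.1 CPM in het and 24.4, 21.96, 21.6 and 17.0 CPM in KO. The het libraries lay near both ends of the KO range. The KO mean was 21.2 and the het mean 21.97 CPM, whereas the fit, which weights libraries by depth, gave a log2 fold change of 0.08 (SE 0.22, adjusted p = 0.837). Leaving out het replicate 2 or KO replicate 1 turned its sign. Egr1 was likewise higher in het replicate 1, at 30.9 and 20.0 CPM in het, with 21.9, 22.6, 23.4 and 18.2 CPM in KO. The fit gave it a log2 fold change of -0.13 (SE 0.20, adjusted p = 0.691), and it was above 0 under library totals. The het libraries also differed in other measures: neuron markers summed to 1462 CPM in het replicate 1 and 694 CPM in het replicate 2, against 1030 to 1296 CPM in KO, and pigment epithelium markers (6 of 10 listed) to 348 and 179 CPM, against 50.1 to 183 CPM. Their part in the values of Fos and Egr1 was not tested.

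Junb was at 7.00 and 6.50 CPM in het and 3.81, 6.16, 6.92 and 6.68 CPM in KO. KO replicate 1 was low, and the other 3 lay near the het level. Its fitted log2 fold change was -0.18 (SE 0.28, adjusted p = 0.709), and -0.01 without KO replicate 1. Nr4a1 was at 18.1 and 14.7 CPM in het and 12.6, 14.9, 12.5 and 12.8 CPM in KO. Only KO replicate 2 reached the het range. For Nr4a1 the log2 fold change was -0.25 (SE 0.18, adjusted p = 0.386). It was -0.15 without het replicate 1, -0.46 without het replicate 2 and -0.12 under library totals.

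The within-group standard deviation at P22 had a median of 0.26 over the members and 0.19 over all genes. None of the 6 members lay above the 90th percentile of its expression class, beside 9.99% of all genes. The spread among KO libraries exceeded that among the het pair for 2 members, Jun and Junb, beside 42.3% of all genes. The genotype difference exceeded the standard deviation for 3 members, Jun (ratio 3.12), Nr4a1 (2.09) and Dusp1 (1.58), beside 64.0% of all genes. The log2 fold change was below 0 for 4 of 6 members, beside 46.4% of all genes. The members' median was -0.15 and that of all genes 0.04. Library totals in place of TMM moved the median of all genes to 0.17, and 3 of the 6 members were then below 0.

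The difference between the genotype effects at P22 and P0 was tested over the genes in both tables, with age and kit together. No member passed with edgeR, beside 4.10% of all genes, and at an unadjusted p under 0.05 there were Dusp1 and Nr4a1, beside 21.6% of all genes. The effect at P22 minus that at P0 was 0.84 on the log2 scale for Dusp1 (SE 0.31, adjusted p = 0.122) and -0.52 for Nr4a1 (SE 0.20, adjusted p = 0.132). For Jun it was 0.13 (SE 0.43, adjusted p = 0.899). Without P0 KO replicate 3, Jun (0.69, adjusted p = 0.0188) and Dusp1 (1.01, adjusted p = 0.0315) passed, beside 10.7% of all genes. Without P22 het replicate 2, Dusp1 was at 0.38 (adjusted p = 0.727). Under library totals Dusp1 passed, beside 6.81% of all genes, with 628 genes called higher and 150 lower in place of 201 and 267.

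Related genes were read from lists of the same signalling pathway, with their counts and medians. At P0 none of the listed genes was called by edgeR. Of 34 other immediate early genes, 30 had a row, 21 were below 0 (45.1% of all genes were), and 3 had an unadjusted p under 0.05, near the 8.17% of all genes. The median was -0.11. Those with the smallest p were Ppp1r15a (log2 fold change -0.34), which restores translation after stress, and Trib1 (-0.32), a pseudokinase. Of 10 ERK phosphatases and feedback inhibitors, 9 had a row and all 9 were below 0, with a median of -0.30; Dusp5, a nuclear ERK phosphatase, was at -0.33 with no overlap between the groups (as for 2.35% of all genes), and Dusp10 at -0.27. Of 23 upstream kinases and factors, 18 were below 0. Those with the smallest p were Rps6ka1 (-0.44) and Map2k1 (-0.23). Without KO replicate 3, 10 of the other immediate early genes, 7 of the feedback genes and 9 of the upstream genes were called lower and none higher, beside the 12.6% of all genes called lower in that fit. With het replicate 4 also left out these counts were 6, 5 and 4, beside 6.30% of all genes. Late response genes were split, with Vgf at -0.51 and Nrn1 at 0.29.

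Heat shock and hypoxia genes, which report on stress, were not called at P0 with all libraries. Without KO replicate 3, 4 of 12 hypoxia genes and 0 of 10 heat shock genes were called lower, and with het replicate 4 also left out 3 and 0. Hsp90aa1 was at 0.26 and Bag3 at -0.39, and of 12 hypoxia genes listed 11 were below 0, among them Ndufa4l2 (-1.24) and Pdk1 (-0.36). Their part in the members' values was not tested.

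At P22 the lists held called genes in both directions, beside 4.74% of all genes called higher and 6.41% called lower. Under library totals that split turned, with 1073 genes called higher and 415 lower, in place of 551 and 744. Among 16 other immediate early genes with a row, Rgs2 (0.77, adjusted p = 0.0109), which limits G protein signalling, and the kinase Plk2 (0.78, adjusted p = 0.0241) rose. Arl4d (-0.72, adjusted p = 0.0104) and Ppp1r15a (-0.87, adjusted p = 0.0216) fell. The median of that list was 0.10. Among 9 feedback genes Dusp10 rose (0.75, adjusted p = 0.0338) and Spry2, which inhibits ERK signalling, fell (-0.58, adjusted p = 0.0271). Under library totals 2 of these 9 were called higher and 0 lower, and without het replicate 1 the counts were 0 and 1. Among 21 upstream genes Mef2d (-0.72, adjusted p = 0.00765), Crebbp (-0.50, adjusted p = 0.0171) and Rps6ka2 (-0.54, adjusted p = 0.0217) fell, and none rose. Of 11 late response genes, Pcsk1 (1.06, adjusted p = 0.0287), a protease that processes neuropeptides, and Scg2 (0.60, adjusted p = 0.0403), a granin of secretory vesicles, rose.

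Of 8 heat shock genes listed at P22, all were below 0 and 4 fell: Hspa1b (-1.15, adjusted p = 0.0128), Hsp90aa1 (-0.61, adjusted p = 0.0288), Hspa1a (-0.97, adjusted p = 0.0299) and Hsph1 (-0.52, adjusted p = 0.0417). Without the shallow het replicate 1, 1 of the 8 was called lower, and under library totals 3 were. In the fit without het replicate 1, 425 of 11613 genes were called lower and 579 higher, in place of 744 and 551. Of 9 hypoxia genes listed, 5 were below 0 and 4 above, with a median of -0.05, and only Ldha fell (-0.56, adjusted p = 0.0220). Beside these, 8 of 10 rod markers fell, with sums of 82692 and 88381 CPM in het and 43989 to 55351 CPM in KO. Without het replicate 1, 4 rod markers were called lower. Of 10 Müller glia markers 7 rose, with sums of 1381 to 1461 CPM in het and 1882 to 2555 CPM in KO. Of 5 endothelial and mural markers listed 3 rose, with sums of 187 to 188 CPM in het and 267 to 336 CPM in KO, and 1 was called without het replicate 1. The share of mitochondrial reads was 7.10% and 7.77% in het and 10.5% to 12.5% in KO. Of 10 neuron markers 0 were called, and 5 were called higher without het replicate 1. Levels of the rod, Müller glia, endothelial and mural markers at P22 thus moved with genotype, though the reference was 2 het libraries. The part of all these measures in the values of Jun, Dusp1 and the listed genes was not tested.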

How the data were processed

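Retina RNA was measured by bulk RNA sequencing at P0 and P22, in groups given by the labels. Reads were processed with Trim Galore, STAR, HTSeq and edgeR against mm10, per the submitters' processing notes; versions, annotation and use of strand are not given in the sources used here. The deposited count columns are whole reads per gene and library, not normalized. The deposited CPM columns are the authors' scaling to library totals, and count divided by CPM gave those totals. The authors' log2 fold changes and log2 mean CPM, and the authors' p-value and false discovery rate columns, were deposited in the same tables, per the file headers.

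Counts were fitted in R 4.3.3 with edgeR 4.0.16 within each age (filterByExpr, TMM scaling, glmQLFit, glmQLFTest, Benjamini-Hochberg adjustment over all genes, threshold 0.05). The effect by age was an interaction term over genes in both tables. Printed CPM use TMM-scaled totals, and spread uses log2(CPM + 0.5). A gene's floor is 3 reads. Alternatives were DESeq2 1.42.0 (its size factors, and its Wald test), library totals only, limma 3.58.1 with voom and sample weights, a mean CPM of at least 1, a pseudocount of 2, a replicate block, each library left out, and, chosen after seeing the data, an exact test with 1 common dispersion, the omission of both P0 KO replicate 3 and het replicate 4, and the P0 spread without KO replicate 3. On simulated counts with 200 genes changed 2-fold, the fit recovered 99% at P0 (19337 genes, 13 false calls) and 87% at P22 (11613 genes, 10 false calls). The simulation used the trended dispersion, held no outlying library and changed no scarce genes. These shares therefore do not apply to members with a wider spread, such as Jun, or with low levels, such as Fosb.

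The members and lists were chosen with earlier results of these data known. All members are named; of the other pathway lists, genes past the threshold at that age (at most 6 per list, by smallest p), or else the 2 with the smallest p. The most alike genes are the 5 per age with the highest correlation to the mean of the members. Only other genes with a mean log2 CPM of at least 1 were ranked. Junos, Prdx2 and Gm11454 were named after their values were seen. Bipolar cell markers are not reported here. Coordinates are from GENCODE M21 (GRCm38); Junb and Ier2 matched without their version number.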

Additional observations from a re-analysis of the deposited data

Results flagged for a closer look

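Among 24 groups of 4 libraries, 1 per gene, age and genotype, 4 held a library far from the others by Dixon's criterion, which chance alone meets in about 1 of 20 groups. The groups of different genes share the same libraries. Over all genes, the criterion was met in 4.86% of P0 het, 7.89% of P0 KO and 5.23% of P22 KO groups, and KO replicate 3 was the far library in 68.0% of the P0 KO cases. Jun at P0 was at 92.4 CPM in KO replicate 3, while the other KO libraries lay between 27.9 and 34.8 CPM. Ier2 at P0 was at 19.3 CPM in the same library, with the other KO libraries at 9.63 to 11.2 CPM. Ier2 was also high in P0 het replicate 3, at 20.0 CPM beside 16.6 to 16.9 CPM. Nr4a1 at P22 was at 14.9 CPM in KO replicate 2, beside 12.5 to 12.8 CPM.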

How the results depend on the processing

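The P0 count of genes called moved from 1 to 2150 with limma's sample weights, 34 with the exact test with 1 common dispersion, 0 with a mean CPM of at least 1, and 1319 with KO replicate 3 and het replicate 4 left out. Leaving out 1 library gave 0 to 2839, the highest without KO replicate 3. The count of members called at P0 moved from 0 to 2, 1 and 2 under the first, second and last of these settings, and from 0 to 3 with 1 library left out. The count of P0 members whose difference exceeded the spread was 5, and 3 to 6 with 1 library left out.

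At P22, 1295 genes were called, against 2675 with sample weights, 2111 with the exact test and 344 to 1273 with 1 library left out (344 without KO replicate 1, 590 without KO replicate 2, 612 without het replicate 2). Members called moved from 0 to 1 with sample weights, to 1 with the replicate block (adjusted p = 0.0478) and to 0 to 1 with 1 library left out, in each case Jun. For the effect by age, members called moved from 0 to 1 under library totals (Dusp1, 1.00 on the log2 scale, adjusted p = 0.0488) and to 0 to 2 with 1 library left out.

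Signs turned for members near 0. At P0, Egr1 was at 0.0028 under library totals, 0.021 with sample weights and 0.0030 with the exact test, and -0.14 to 0.039 with 1 library left out; Fosb ranged from -0.43 to 0.044. At P22, Egr1 was at 0.00097, 0.064 and 0.00053 under those settings and at -0.53 to 0.10 with 1 library left out, and Fos at -0.34 to 0.31. By age, Egr1 was at 0.0051 under library totals and ranged from -0.53 to 0.082, Fos from -0.093 to 0.54, Jun from -0.029 to 0.69 and Junb from -0.057 to 0.20. The causes were not tested.

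Same-numbered het and KO libraries did not deviate together at P0, with correlations of deviations from -0.33 to -0.09. At P22 the check is void, since the deviations of 2 het libraries from their own mean mirror each other (0.196 and -0.089 for the same-numbered pairs). The labels give no pairing at either age. The replicate block left 1 gene and 0 members called at P0, gave 1760 genes at P22, and put Junb by age at -0.089. What depth limits is the P22 het pair: het replicate 1 held 12 to 69 reads per member.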
